A study of Homo sapiens with 36 samples.

Results

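JUNB occupancy was compared between 2 sorted subpopulations of one breast cancer line that had received only the vehicle. The comparison rests on 4 of the 36 samples of the series, 2 libraries from POS cells and 2 from NEG cells, read over the 146555 JUNB sites listed for them. All columns labelled JUNB and DMSO in the JUNB count table were used, and every site of the table was kept, whatever its value. The line, SUM-229PE, is a triple-negative breast cancer line grown from a pleural effusion. POS cells carried the epithelial surface proteins EpCAM and CD49f and NEG cells lacked both, as separated by fluorescence-activated sorting. The JUNB libraries belong to the acute DMSO arm, so both groups had vehicle and no inhibitor, and JUNB was not profiled after drug. The 5 H3K27ac comparisons used beside JUNB came from other libraries: POS (3 libraries) against NEG (2) in acute DMSO, and acute trametinib (30 nM for 24 h) against acute DMSO within POS (3 against 3) and within NEG (2 against 2). The last 2 set trametinib at 10 nM on day 14 against day 0, within POS and within NEG (2 against 2 each).

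JUNB is a subunit of AP-1, a family of transcription factors that bind DNA as pairs of JUN and FOS proteins. The kinases MEK and ERK act upstream of AP-1, and trametinib blocks MEK. H3K27ac is a histone mark of active promoters and enhancers, and AP-1 is known for occupying enhancers in epithelial and mesenchymal cells.

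These groups have limits as a model. The data come from 1 cell line, and no label says that replicates were separate cultures. The p-values therefore reflect the spread of these libraries, which may be technical. No spike-in is described, so a difference in JUNB over the whole genome would not be visible after scaling. More cells with JUNB at a site and more JUNB per cell cannot be told apart. Sites were not assigned to genes, so the sorted cells could not be checked against their marker genes, and sites are given by hg19 coordinates as the files list them. The 10 input libraries are absent from the columns of the count tables used and were not analysed here.

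The 4 JUNB libraries held 4884516 to 8947351 counts in the sites, with a median of 17 to 27 counts per site. On log2(CPM + 0.5), where CPM are read counts relative to library size with TMM scaling (trimmed mean of M-values), replicates correlated across sites with r of 0.937 in POS and 0.937 in NEG. Between POS and NEG libraries r was 0.390 to 0.404. These are descriptions across sites, which share libraries. Replicates differed by more than sampling noise, with a ratio of chi-square to degrees of freedom of 1.74 in POS and 2.08 in NEG, so no library was taken for a repeat of another. The distribution of counts was alike in the 4 libraries: the median site had 3.15 to 3.26 CPM, and the strongest 10% of sites held 46.6% to 49.6% of the counts.

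JUNB occupancy differed between the subpopulations, in nearly equal numbers of sites in both directions. Of 141580 sites tested, 81944 (57.9%) were called by edgeR's quasi-likelihood test at a Benjamini-Hochberg adjusted p under 0.05, 40350 (28.5%) higher in POS and 41594 (29.4%) higher in NEG. The median log2 fold change (POS over NEG, here and below) was 1.93 among sites called higher in POS and -1.84 among those called higher in NEG, against -0.02 over all tested sites. A difference of 4-fold or more was found at 19312 POS-higher and 18369 NEG-higher sites, and one of 16-fold or more at 3007 and 2785. Of the tested sites, 59636 (42.1%) were not called, and 4975 sites were too weak to be tested. The POS and NEG values did not overlap in 81564 of the called sites, but also in 26960 of those not called. With 2 libraries per group, a lack of overlap alone therefore says little. No count was found in either NEG library at 71 tested sites, or in either POS library at 80. With these sites at their lower bound (a floor of 3 counts over the group, counting error only) both medians were again 1.93 and -1.84. So few sites could hardly have moved either median.

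**Figure D1:**
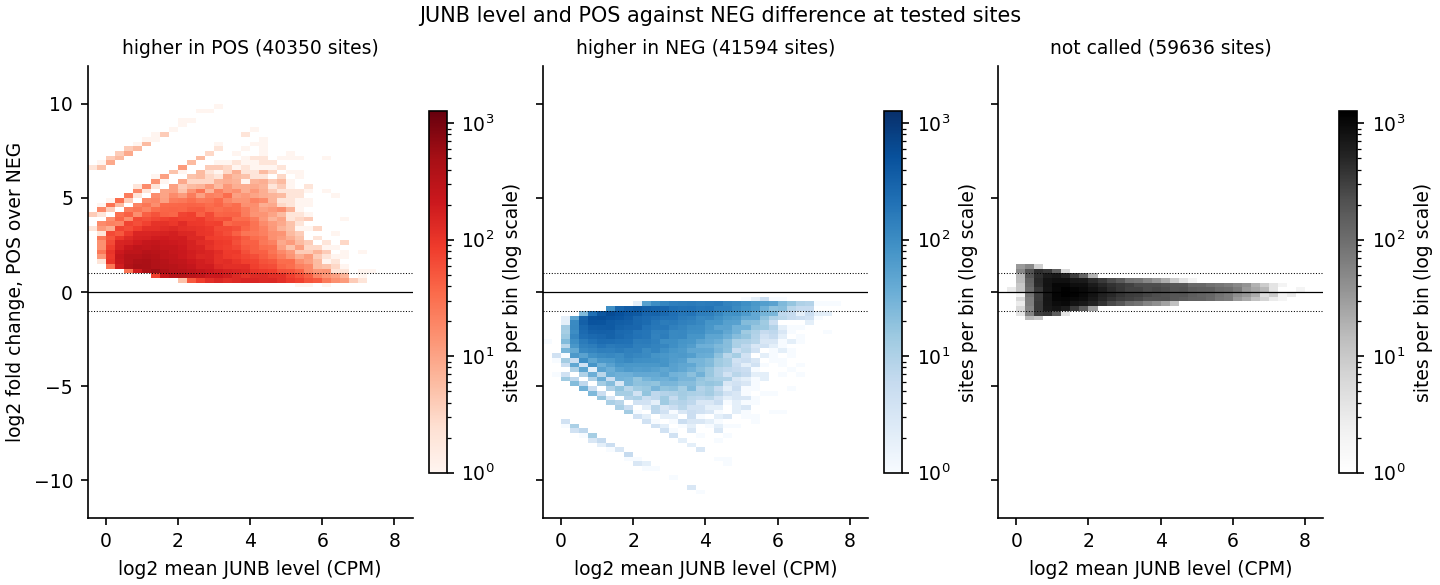
Mean JUNB level of each tested site over the 4 libraries (x, log2 CPM) against its log2 fold change, POS over NEG (y), with sites per bin as colour on a log scale and dotted lines at 2-fold. The 40350 sites higher in POS and the 41594 higher in NEG mirror each other, and the 59636 sites not called narrow around 0 as the level rises; the diagonal streaks at weak levels are sites with few or no counts in one group.

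The share of sites that differed depended on their level. Sites were ranked by the mean of the 4 libraries and divided into 10 deciles, of which decile 10 was the strongest (15.9 CPM or more). In decile 10, 39.7% of sites were called and differed 2-fold or more, against 58.9% in decile 8 and 46.0% in decile 2. Decile 1 had 59.2%, but a weak site passed the filter on low counts more easily if it was high in 1 group, so that share is not comparable. Ranked by the higher of the 2 group means, which does not pull down sites bound in 1 group, the share rose from 24.2% in decile 1 to 64.8% in decile 8 and was 51.7% in decile 10. Under both rankings the share of decile 10 was below that of decile 8. The 2 directions were not balanced at every level. By mean level, 34.9% of sites in decile 1 were called higher in POS and 24.3% higher in NEG, against 33.6% and 39.2% in decile 9. The median standard error of the log2 fold change fell from 0.62 to 0.24 between deciles 1 and 10 by mean level, so the strongest sites were also the most precisely measured.

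Sites were named at most 1 per 1 Mb in each set, so neighbours of a named site were passed over even where their values were larger than those of the sites named after it. The POS-higher sites with the largest difference in absolute level, so spaced, combined strong POS binding with weak or moderate NEG binding. At chr8:126656749-126656950, JUNB was 215 and 223 CPM in the POS libraries and 47.2 and 48.0 in the NEG libraries, a log2 fold change of 2.20 ± 0.24 (SE). At chr3:181930353-181930554 the POS libraries had 183 and 168 CPM and the NEG libraries 15.2 and 8.58, a log2 fold change of 3.85 ± 0.25. At chr8:72165903-72166104 JUNB stood at 159 and 139 CPM in POS, against 5.46 and 3.33 in NEG, a log2 fold change of 5.04 ± 0.30. At the last of these the NEG values were near those of the median site, while the first was still bound in NEG at a level above the lower limit of decile 10. The remaining sites of the set also lay on chromosome 8, and at each the POS values lay above both NEG values. At chr8:116981862-116982063 the POS libraries had 190 and 169 CPM and the NEG libraries 31.3 and 30.7. At chr8:122109754-122109955 the levels were 167 and 164 CPM in POS and 23.9 and 31.7 in NEG. The smallest ratio of the 6 was at chr8:128227532-128227733, with 249 and 224 CPM in POS, 120 and 80.1 in NEG and a log2 fold change of 1.24 ± 0.24.

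The NEG-higher sites chosen in the same way included some with little JUNB in POS. At chr8:110141680-110141881, JUNB was 2.11 and 0.959 CPM in POS and 118 and 172 in NEG, a log2 fold change of -6.44 ± 0.40. At chr9:18543597-18543798 the POS libraries had 8.43 and 8.44 CPM and the NEG libraries 179 and 199, a log2 fold change of -4.48 ± 0.27. At chr8:114750854-114751055 JUNB stood at 9.95 and 7.67 CPM in POS, against 132 and 168 in NEG, a log2 fold change of -4.07 ± 0.26. At these 3 sites each NEG library stood more than 10-fold above each POS library. The remaining 3 kept a clear POS signal. At chr20:49977045-49977246 the POS libraries had 19.4 and 15.0 CPM and the NEG libraries 147 and 172. At chr9:19999562-19999763 the levels were 59.9 and 54.7 CPM in POS and 238 and 284 in NEG, a log2 fold change of -2.18 ± 0.24. At chr8:126649757-126649958 they were 110 and 99.4 CPM in POS and 210 and 275 in NEG, a log2 fold change of -1.21 ± 0.24. Among all 12 sites, the highest Benjamini-Hochberg adjusted p from edgeR's quasi-likelihood test was 1.8e-06. The POS-higher site chr8:126656749-126656950 and the NEG-higher site chr8:126649757-126649958 lay 6992 bases apart, so the named sites of both directions included close neighbours.

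**Figure D2:**
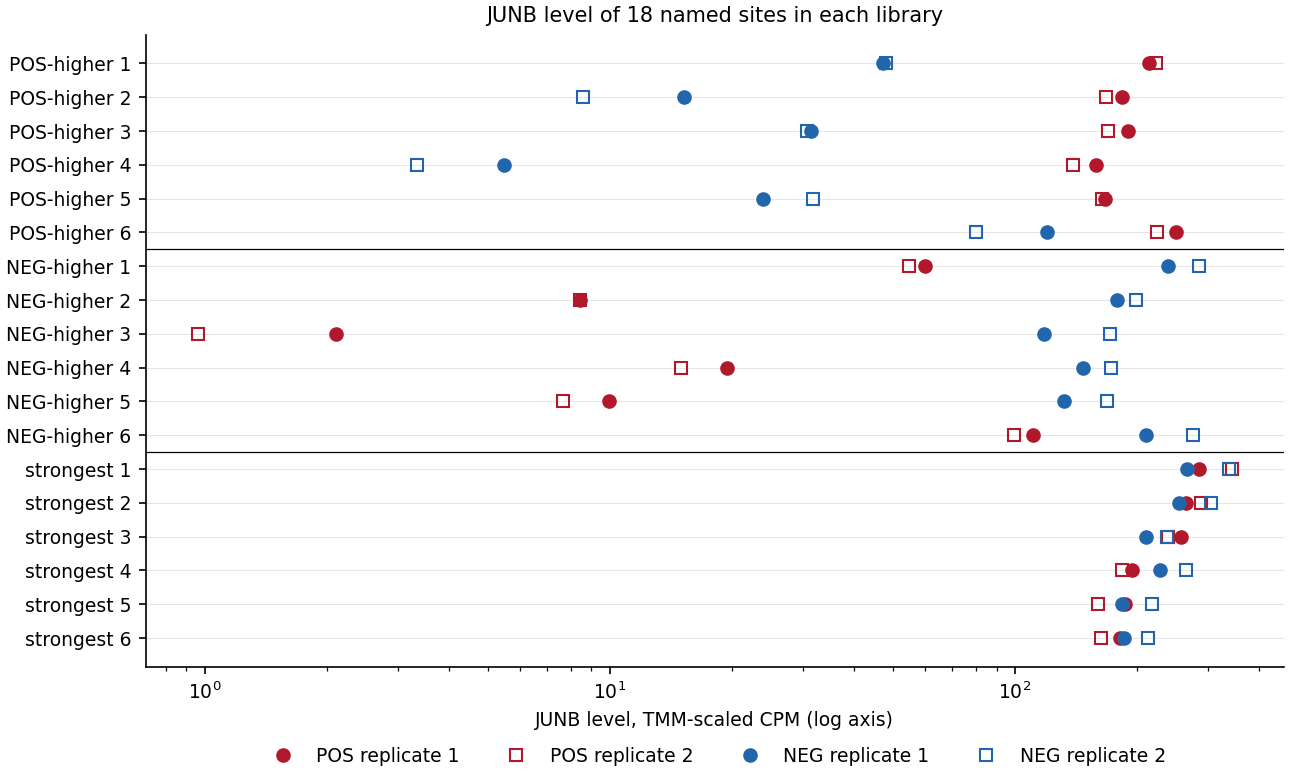
JUNB level (x, TMM-scaled CPM, log axis) of 18 sites in each of the 4 libraries, POS in red and NEG in blue, replicate 1 as filled circles and replicate 2 as open squares. The first 6 rows are sites with a large difference in CPM higher in POS, the next 6 those higher in NEG, and the last 6 strong sites by mean level, each set ranked and holding at most 1 site per 1 Mb; POS and NEG points are apart in the first 12 rows and intermingled or adjacent in the last 6.

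The very strongest sites of the table were not called. By mean level alone, the first 6 were all not called, and 3 of them were among the 6 named with the 1 Mb spacing, none of which was called. The spacing passed over 5 sites at or above the level of the weakest named one. Of these, only chr8:126980874-126981075 was called, with 149 and 139 CPM in POS and 220 and 251 in NEG and a log2 fold change of -0.71 ± 0.24. The strongest site, chr8:126231605-126231806, had 285 and 343 CPM in POS and 266 and 337 in NEG, and its log2 fold change of 0.06 had a 95% interval of -0.42 to 0.54. At chr8:127446081-127446282, JUNB was 264 and 288 CPM in POS and 254 and 304 in NEG, with an interval of -0.49 to 0.46. At chr9:18393387-18393588 the POS libraries had 258 and 238 CPM and the NEG libraries 210 and 237, with an interval of -0.32 to 0.62. POS and NEG values overlapped at the first 2 of these sites, and these intervals exclude a 2-fold difference at all 3. The fourth named site, chr9:21591711-21591912, had 195 and 184 CPM in POS and 228 and 264 in NEG, values that did not overlap, with a log2 fold change of -0.38 ± 0.24. It was called with library size scaling (adjusted p = 0.020) and with upper quartile scaling (adjusted p = 0.037), against 0.17 here (edgeR's quasi-likelihood test, Benjamini-Hochberg). The last 2 named, chr20:56273404-56273605 and chr18:20248022-20248223, had log2 fold changes of -0.21 and -0.21.

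A site was taken as shared where its mean level was in the top 1% and the 95% interval of its log2 fold change lay within 0.5 of 0. Of the 1416 sites in the top 1% (53.1 CPM or more), 107 met this. The median standard error in decile 10 by mean level was 0.24, so only estimates very near 0 could meet the rule. The number is thus set by precision and does not count all strong sites that are alike in POS and NEG. The first 4 by level, at most 1 per 1 Mb, were chr8:127446081-127446282, given above, and 3 with log2 fold changes between -0.02 and 0.02. Of these, chr8:126422873-126423074 had 178 and 189 CPM in POS and 167 and 204 in NEG. At chr9:18460033-18460234 the levels were 149 and 137 CPM in POS and 131 and 152 in NEG. At chr2:173117977-173118178 they were 147 and 125 CPM in POS and 122 and 155 in NEG. In all 4 the POS and NEG values interleaved.

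The top 1% of sites by mean level held 271 POS-higher sites, 344 NEG-higher sites and 801 (56.6%) that were not called. Of these 1416 sites, 18.5% were called with a difference of 2-fold or more, against 50.6% of all tested sites, and the mean of the 4 libraries favours sites bound in both groups. Ranked by the higher group mean instead, the top 1% held 397 POS-higher and 486 NEG-higher sites, and the share with a difference of 2-fold or more was 37.6%. Strong sites were unevenly spread over the genome: chromosome 8 held 16.4% of the top 1% but 5.72% of tested sites, and chromosome 20 held 5.30% against 2.71%. How much DNA each chromosome holds was not measured here. The levels in CPM, and the differences in CPM used to name sites, are thus not levels per DNA copy.

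Most JUNB sites lay outside the H3K27ac regions listed for the same POS and NEG cells. A site was taken as inside where at least 50% of it lay in a region. This held for 50248 sites (34.3%), while 96307 (65.7%) lay outside. The listed regions all have the same width of 1001 bases, and how far the mark extends beyond them was not measured. These shares therefore count sites in or out of the listed regions, and not sites with or without the mark. Sites inside were stronger, with a median of 5.82 CPM against 2.95 CPM outside. Inside, the shares of tested sites called POS-higher and NEG-higher were 32.9% and 32.9%, and outside 26.1% and 27.5%. Binding that differed between POS and NEG was thus not confined to the regions of this list. Of the top 1% of sites, 76.7% lay inside. Among the 12 sites named for their differences, 4 lay outside, namely chr8:72165903-72166104 (3627 bases from the nearest region), chr8:128227532-128227733 (8766 bases), chr20:49977045-49977246 (4798 bases) and chr8:114750854-114751055 (1304 bases). A site outside this list can still carry the mark. The chromosome 20 site lay in a region listed for NEG on day 14 and day 0. H3K27ac there was 77.6 ± 9.02 CPM on day 0 and 76.2 ± 5.05 on day 14 (SD, n = 2 each).

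Where a site lay inside, H3K27ac in its own libraries was ordered by the JUNB difference. By the same test, H3K27ac itself was called higher in POS in 38.6% of all its regions and higher in NEG in 38.0%. Of 16350 sites with JUNB higher in POS, 90.2% lay in a region with H3K27ac higher in POS and 1.17% in one higher in NEG. Of 16372 sites with JUNB higher in NEG, 79.9% lay in a region higher in NEG and 5.28% in one higher in POS. The 17008 sites not called for JUNB were divided, with 36.7% in regions higher in POS and 27.3% in regions higher in NEG. The median H3K27ac log2 fold change rose over bins of the JUNB log2 fold change, from -3.59 where JUNB was under -4 and -1.17 between -2 and -1, to 1.67 between 1 and 2 and 3.63 over 4. Sites that share a region share its H3K27ac value, so these shares are descriptions and carry no p.

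The named sites span this relation. At the NEG-higher site chr9:18543597-18543798, H3K27ac of the region was 15.7 ± 4.20 CPM in POS (SD, n = 3) and 382 ± 13.8 in NEG (SD, n = 2), a log2 fold change of -4.63 ± 0.25 (SE) beside -4.48 for JUNB. At the POS-higher site chr3:181930353-181930554 the mark stood at 27.3 ± 0.805 CPM in POS, against 2.13 ± 0.256 in NEG, a log2 fold change of 3.67 ± 0.31 beside 3.85 for JUNB. By contrast, the POS-higher site chr8:126656749-126656950 lay in a region with 35.7 ± 4.80 CPM in POS and 26.5 ± 2.07 in NEG, a log2 fold change of 0.42 ± 0.18 beside 2.20 for JUNB. At the first 2 sites the marks differed by about the same ratio, and at the last JUNB differed far more than the histone mark.

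JUNB and H3K27ac were both called in opposite directions at 1055 sites (3.65% of those called for both), of which 864 had JUNB higher in NEG. These sites had small differences, with a median absolute JUNB log2 fold change of 0.95 against 2.11 at the 27834 sites called in the same direction. They were stronger, with a median level of 11.4 CPM against 5.86 CPM. At 155 of them both marks differed 2-fold or more, and 4 examples, chosen after their values were seen, show the size. At chr2:189494103-189494304, JUNB was 7.96 and 8.82 CPM in POS and 2.25 and 1.40 in NEG (log2 fold change 2.13 ± 0.38), while H3K27ac stood at 4.19 ± 1.77 CPM in POS, against 15.5 ± 0.341 in NEG. At chr12:127757576-127757777, JUNB was 2.46 and 1.73 CPM in POS and 12.8 and 7.53 in NEG (-2.25 ± 0.36), while H3K27ac stood at 27 ± 3.08 CPM in POS, against 7.02 ± 1.40 in NEG (1.95 ± 0.21). The sites chrX:107514366-107514567 and chr16:17609757-17609958 had JUNB log2 fold changes of -1.85 ± 0.52 and -2.32 ± 0.53 and H3K27ac log2 fold changes of 2.21 ± 0.25 and 1.76 ± 0.26. The chromosome 16 site was not called without NEG replicate 1 (log2 fold change -1.54, edgeR's adjusted p = 0.089). The chromosome X site had an adjusted p of 0.058 in the authors' deposited table.

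Called sites in 1 H3K27ac region nearly always differed in the same direction. The regions are 1001 bases wide, so such sites are close neighbours. Of all pairs of called sites 0.5 to 1 kb apart, in a region or not, 92.0% had the same direction. Sharing a region and lying close were thus not told apart. Of 2361 regions with more than 1 called site, 1174 had all of them higher in POS, 1049 all higher in NEG, and 138 (5.84%) had both directions. In 52 regions, sites that differed 2-fold or more went both ways, and 3 pairs, chosen after their values were seen, are given here. In 1 region, chr8:126556918-126557119 had 59.1 and 53.3 CPM in POS and 5.82 and 4.20 in NEG, and chr8:126556325-126556526 had 22.5 and 17.1 CPM in POS and 101 and 105 in NEG. These sites lay 593 bases apart, had log2 fold changes of 3.46 ± 0.28 and -2.36 ± 0.24, and shared a region whose H3K27ac log2 fold change was 0.90 ± 0.19. The pair chr11:130911324-130911525 (2.43 ± 0.41) and chr11:130911940-130912141 (-1.87 ± 0.41) lay 616 bases apart in a region not called for H3K27ac. The pair chr8:8522670-8522871 (2.66 ± 0.48) and chr8:8521986-8522187 (-2.62 ± 0.59) lay 684 bases apart, also in a region not called, and the second site was not called without NEG replicate 1 (log2 fold change -1.67, edgeR's adjusted p = 0.11).

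Near called sites mostly had the same direction of JUNB difference, and the share fell with distance. Of pairs of called sites with centres 0.2 to 0.5 kb apart, 94.2% had the same direction, and of pairs 5 to 10 kb apart 75.3%. The share was 59.9% at 100 to 500 kb and 53.5% at 1000 to 5000 kb. Pairs share libraries and sites enter several pairs, so this is a description with no p.

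**Figure D3:**
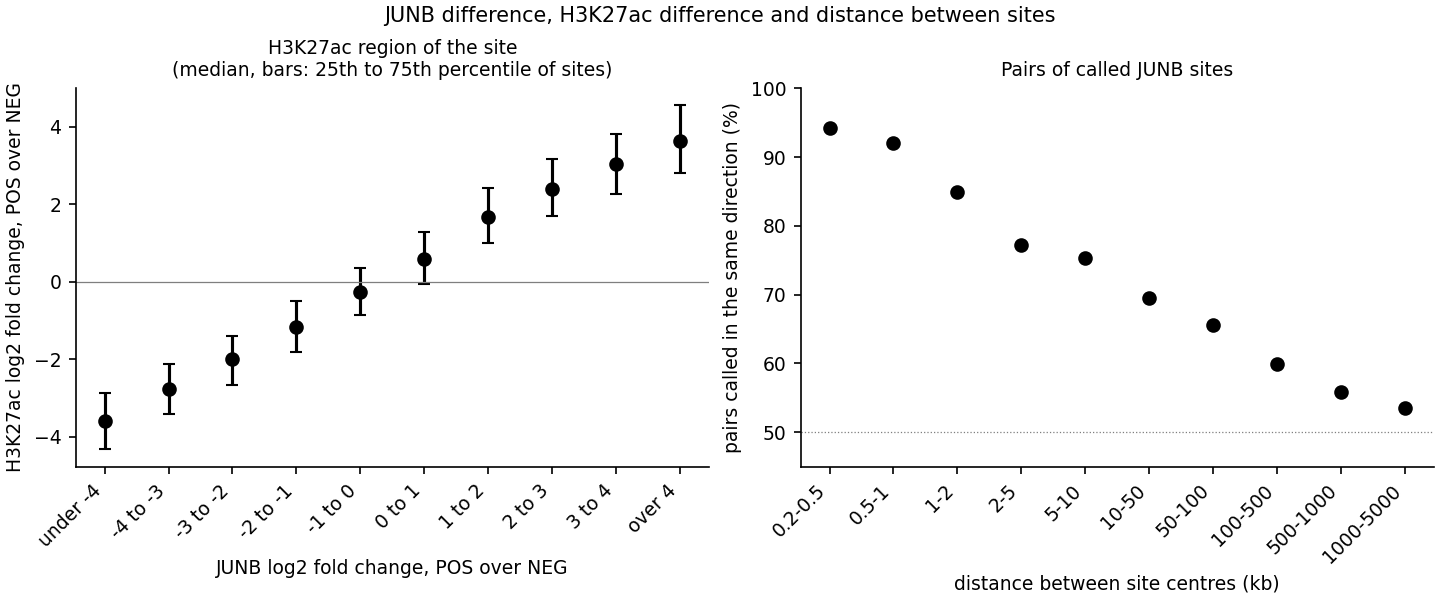
Left: log2 fold change of H3K27ac (y, POS over NEG) in the region that holds a JUNB site, by bin of the site's JUNB log2 fold change (x), as median and 25th to 75th percentile over sites; the median rises from -3.59 to 3.63. Right: percentage of pairs of called JUNB sites with the same direction (y, axis from 45%) by distance between their centres in kb (x), which falls from 94.2% to 53.5%, with a dotted line at 50%.

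At the scale of 500 kb windows, JUNB differences went in 1 direction only in a minority of windows, and most windows held both directions. Of all tested sites, 25.1% were called at least 2-fold higher in POS and 25.5% at least 2-fold higher in NEG. Of 4365 windows with at least 5 sites called and 2-fold different, 273 had all of them higher in POS and 254 all higher in NEG, together 12.1%. In windows of 1 Mb this was 6.18%. The more frequent direction held a median of 75% of these sites per window at 500 kb and 70.6% at 1 Mb. The most one-sided POS windows by count were chr10:116000001-116500000, with 44 sites higher in POS by 2-fold or more and 2 higher in NEG of 62 tested, and chr6:10000001-10500000, with 41 and 0 of 45. They were followed by chr13:73500001-74000000 (42 and 1 of 55), chr9:124000001-124500000 (39 and 0 of 46) and chr6:36000001-36500000 (36 and 1 of 44). In the NEG direction, chr8:80000001-80500000 had all 39 of its tested sites higher in NEG by 2-fold or more, with a median log2 fold change of -3.42. In chr16:15500001-16000000 this held for 39 of 51 sites with 0 in the other direction, and in chr12:25500001-26000000 for 40 of 63 with 2 in the other. The remaining pair of NEG windows were chr2:102500001-103000000 (42 and 4 of 59) and chr16:86500001-87000000 (41 and 4 of 61).

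H3K27ac in these windows had the same direction as JUNB. Over all tested H3K27ac regions, 30.7% were called at least 2-fold higher in POS and 28.8% at least 2-fold higher in NEG. In chr8:80000001-80500000, all 20 H3K27ac regions were higher in NEG by 2-fold or more, with a median log2 fold change of -3.10. In chr6:10000001-10500000, all 20 regions were higher in POS by 2-fold or more, with a median of 3.20. Over the 10 windows the median H3K27ac log2 fold change was 1.35 to 3.20 in the POS windows and -3.10 to -1.27 in the NEG windows.

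Whole chromosomes also leaned to 1 side. The share of called sites that were higher in POS was 49.2% over the genome, 69.1% on chromosome 9, 68.4% on chromosome 13 and 67.3% on chromosome 14. It was lowest on chromosome 19 (23.5%), chromosome 16 (32.3%) and chromosome 8 (39.1%). The median log2 fold change over all tested sites of a chromosome ran from 0.85 on chromosome 13 to -0.73 on chromosome 19, and H3K27ac regions had medians of 0.87 and -0.53 on these chromosomes. On both, the weaker and the stronger sites by level were shifted alike, with medians of 0.91 and 0.81 on chromosome 13 and -0.73 and -0.72 on chromosome 19. JUNB and H3K27ac medians were not as close on every chromosome. They were -0.30 and -0.75 on chromosome 8, and -0.14 and 0.05 on chromosome 18.

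**Figure D4:**
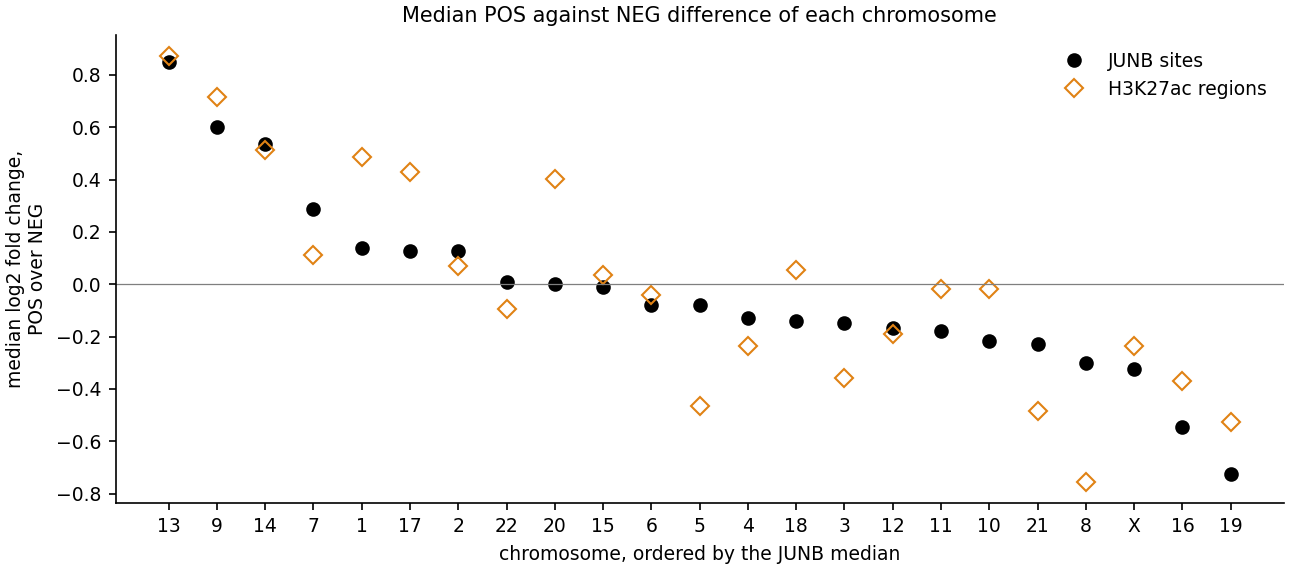
Median log2 fold change, POS over NEG (y), of all tested JUNB sites (filled circles) and all tested H3K27ac regions (open diamonds) on each chromosome (x), ordered by the JUNB median. JUNB medians run from 0.85 on chromosome 13 to -0.73 on chromosome 19, and H3K27ac has 0.87 and -0.53 there.

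The shift of chromosome 19 came from 1 side of its longest stretch without sites. Beyond that stretch, from 28.3 Mb to 59.1 Mb, 1248 of 2062 tested sites were higher in NEG and 211 higher in POS, with a median of -1.03. All bins of 5 Mb in this segment had medians between -1.15 and -0.85, and 4 equal bins of sites by level had medians from -1.27 to -0.90. H3K27ac regions of the segment had a median of -1.01. A shift of about 1 on the log2 scale thus applied to JUNB and H3K27ac, to weak and strong sites, and along the whole segment. At the other end, sites before the longest stretch of chromosome 13 had a median of 0.92, with 1.13 for H3K27ac. As an alternative added after the data were seen, the median of its chromosome segment was taken from every log2 fold change. The calls were kept as before and not tested again. By the centred values, 67707 called sites differed 2-fold or more, against 71592 before. Of these, 65648 were in both sets with the same sign. How much DNA each segment holds was not measured here, since the inputs were not analysed.

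The H3K27ac libraries from trametinib-treated cells were read by the JUNB class of each region, taken from its strongest JUNB site in vehicle. JUNB sites lay in regions of all 4 trametinib tables, and JUNB libraries were not part of any of these comparisons. The tables of acute trametinib share their DMSO libraries with the H3K27ac comparison of POS and NEG above, so those values stand side by side only. No day 14 group without drug was profiled, so drug and time in culture cannot be told apart on day 14.

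With acute trametinib, more H3K27ac regions fell than rose where the strongest JUNB site was higher in NEG, and more rose than fell where it was higher in POS, in POS cells and in NEG cells alike. Over all regions tested in POS, 26.7% rose and 26.0% fell. Of 7398 regions with a NEG-higher JUNB site, 42.4% fell and 15.3% rose in POS, with a median log2 fold change (trametinib over DMSO) of -0.30. Of 17253 regions with a POS-higher site, 23.7% fell and 36.7% rose, with a median of 0.16. In NEG cells 17.2% of all regions rose and 19.3% fell. Of 16551 regions with a NEG-higher site, 34.1% fell there and 18.1% rose, with a median of -0.16, and of 4087 with a POS-higher site 19.3% fell and 24.9% rose, with a median of 0.09. Regions whose strongest site was not called were between the other 2 classes, with medians of -0.12 in POS and -0.03 in NEG. Regions with no tested JUNB site had medians of 0.20 in POS and 0.15 in NEG, and 10.7% and 5.05% of them fell. They were weak in DMSO, with medians of 4.72 CPM in POS and 5.87 in NEG, against 10.7 and 10.2 over all regions. The single libraries showed the separation of the classes with a site. In POS cells the 3 treated libraries had medians of -0.33 to -0.25 in the NEG-higher class and 0.13 to 0.16 in the POS-higher class, against -0.08 to 0.08 for control libraries in the 3 classes with a site.

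On day 14 the same order was seen, with the largest size in POS cells. Over all regions tested in POS, 39.5% rose and 38.2% fell. Of 5844 regions with a NEG-higher JUNB site, 59.4% fell and 21.1% rose by day 14 in POS, with a median log2 fold change (day 14 over day 0) of -0.90. Of 16341 regions with a POS-higher site, 38.0% fell and 39.1% rose, with a median of 0.02, and this median was -0.03 without POS day 0 replicate 2, so its sign was not settled. Regions with no tested JUNB site were mostly higher, since 64.3% of 9864 rose, with a median of 1.28. These regions were weak on day 0, with a median of 4.39 CPM against 12.5 over all regions. JUNB was not profiled on day 14, so sites bound only then would be missing from the list. Whether a lack of JUNB goes with the rise was not tested. In NEG cells 24.8% of all regions rose and 23.8% fell. Of 10444 regions with a NEG-higher site 31.9% fell and 20.2% rose, with a median of -0.13, and of 3165 with a POS-higher site 16.1% fell and 34.1% rose, with a median of 0.18. These are shares and medians over regions, which share libraries. No test of the difference between classes was made.

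The order was also seen at each level of H3K27ac. Regions were divided into 3 equal bins by their mean H3K27ac level within each table. In all 4 comparisons and all 3 bins, the median log2 fold change was lower in the NEG-higher class than in the POS-higher class. For acute trametinib in NEG cells the medians were -0.16, -0.16 and -0.16 from the weakest to the strongest bin in the NEG-higher class, and 0.17, 0.09 and 0.05 in the POS-higher class. On day 14 in POS cells they were -1.15, -0.84 and -0.53, against -0.46, -0.05 and 0.24.

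**Figure D5:**
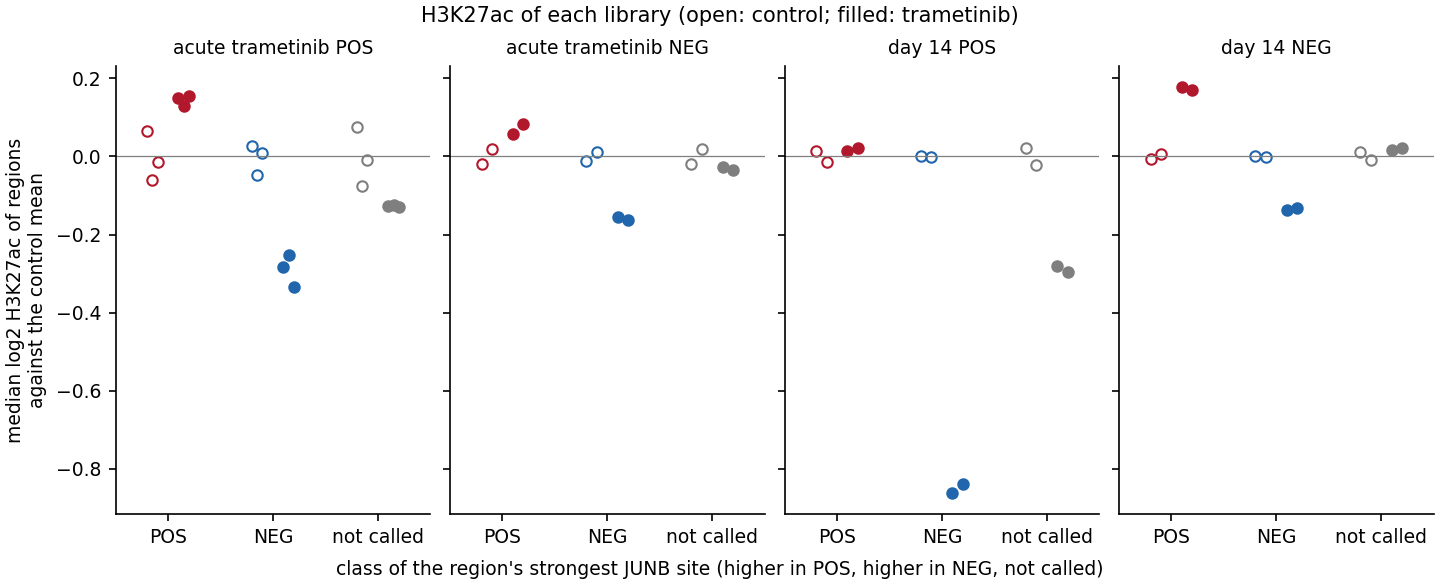
Median log2 H3K27ac of regions against the mean of the control libraries (y, on log2(CPM + 0.5)), 1 point per library, for 4 trametinib comparisons (panels) and 3 classes of region by the strongest JUNB site in vehicle (x): higher in POS (red), higher in NEG (blue), not called (grey). Open points are control libraries and filled points trametinib libraries; in each panel the filled blue points lie below the filled red points, farthest on day 14 in POS cells, where the NEG-higher class is at -0.86 and -0.84.

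Single sites showed responses of very different size. The region of the NEG-higher site chr9:19999562-19999763 lost H3K27ac in all 4 comparisons. With acute trametinib it fell from 194 ± 24.9 to 27.3 ± 1.62 CPM in POS (n = 3 each) and from 335 ± 11.1 to 60.2 ± 1.09 in NEG (n = 2 each). By day 14 it fell from 179 ± 24.3 to 8.13 ± 2.36 CPM in POS and from 408 ± 32.5 to 124 ± 3.35 in NEG (n = 2 each). The log2 fold changes were -2.83 ± 0.18, -2.47 ± 0.10, -4.47 ± 0.21 and -1.72 ± 0.09 in that order. The shared site chr8:126422873-126423074 lay in a region that fell by 2.51 ± 0.17 on the log2 scale in POS and by 0.75 ± 0.10 in NEG with acute trametinib. Not all strongly bound regions fell. The region of chr9:18393387-18393588, among the 6 strongest sites, rose with acute trametinib in NEG (log2 fold change 0.42 ± 0.09) and was not called in the other 3 comparisons, with log2 fold changes of -0.20 to 0.33. The region of the NEG-higher site chr8:126649757-126649958 rose in NEG, from 109 ± 1.48 to 147 ± 7.26 CPM with acute trametinib and from 115 ± 1.37 to 248 ± 2.46 by day 14, and fell in POS by day 14, from 50.1 ± 0.257 to 31.4 ± 0.953.

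The authors' deposited table of DESeq2 results for this comparison called 51668 sites at an adjusted p under 0.05, 25698 higher in POS and 25970 higher in NEG by sign. Of these, 51430 (99.5%) were also called here, all with the same direction, and 30514 sites were called here and not in that table.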

How the data were processed

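The 4 JUNB libraries and the H3K27ac libraries named above were read from count tables. The authors deposited whole-number counts per site and library, raw and not normalized, over a union of MACS2 regions, and tables of DESeq2 results with log2 fold changes and adjusted p-values. Per the submitters' processing notes, the build was hg19 and the tools were STAR 2.5.2b, cutadapt 1.12, MACS2, featureCounts and DESeq2. The sources used here give no settings, and the files do not say how starts are counted. Columns of acute trametinib are headed GSK, and the table's own name assigns them to that arm. Labels describe no molecular identifiers, so counts are of reads.

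The test was edgeR's quasi-likelihood test (edgeR 4.0.16 with limma 3.58.1 in R 4.3.3) with TMM factors (0.961 to 1.07 for JUNB), edgeR's filter with a minimum count of 10 and a prior count of 0.125. Adjustment (Benjamini-Hochberg) ran over all tested regions of each table, and only the groups compared were fitted. Standard errors are Wald errors of the fit, and intervals are 95%. Tables were normalized separately. DESeq2 1.42.0, other scalings, other filters, a replicate block and libraries left out were tried as alternatives. The other tools were python 3.11.15, pandas 2.3.3, numpy 2.4.6 and matplotlib 3.10.9. The scripts were tested on simulated data in which few regions changed, unlike these data.

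Named sites followed a rule: called sites whose groups did not overlap, the 6 with the largest difference of group means in CPM in each direction, the 6 strongest sites, 4 shared sites, at most 1 per 1 Mb in each set, 5 windows of 500 kb with at least 10 tested sites in each direction, and 3 chromosomes at each end. The comparison, its lists and the rule were chosen with earlier results of these data known. Gene lists and sequence motifs were not run, since no hg19 annotation or sequence was used here.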

Additional observations from a re-analysis of the deposited data

Results flagged for a closer look

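In H3K27ac regions whose strongest JUNB site was not called between POS and NEG, the day 14 libraries moved in opposite directions in the 2 subpopulations. The mean over the day 14 libraries of the median log2 H3K27ac against day 0 was -0.288 in POS, with both day 14 libraries below both day 0 libraries. It was 0.0187 in NEG, with both day 14 libraries above both day 0 libraries. By level of H3K27ac, the median log2 fold changes of these regions in 3 equal bins from weak to strong were 0.12, 0.12 and -0.08 in NEG, so the direction in NEG did not hold in the strongest bin, where 33.5% fell and 22.7% rose. In POS they were -0.68, -0.36 and -0.05. The difference between POS and NEG was not tested, the NEG value is small, and the tables were normalized separately and list different regions.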

How the results depend on the processing

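The number of JUNB sites called (81944) stayed within 1.5 times under all alternatives run: 58055 with DESeq2, 68127 with a minimum count of 20, 82280 with no filter, 82203 with library size scaling, 82685 with upper quartile scaling, and 62675 to 73772 with 1 library left out. The share of called sites higher in POS was 48.3% to 52.3% over these. Same-numbered JUNB libraries deviated together with r of 0.07. In the other comparisons r was -0.06 to 0.38, highest for replicate 2 of acute trametinib in POS. The main fits did not pair libraries by number, and whether numbers mark a pairing there is not settled. With 3 pairs, 3 of 6 acute POS libraries correlated best with their own number. With the replicate block 82847 JUNB sites were called (81262 of them also called without it), and the block changed no direction of a class median. Fewer of the 81944 calls were kept with DESeq2 (57657, 70.4%) and with a minimum count of 20 (65926, 80.5%). Over the named sites, 304 results with an alternative setting kept their direction and their side of the threshold, 2 gained and 2 lost the call, as given above.

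Class medians of the H3K27ac log2 fold change moved in some settings. With JUNB classes taken from sites 2-fold or more different, the POS-higher class was 0.16 for acute NEG (0.09 before), 0.10 for day 14 POS (0.02) and 0.27 for day 14 NEG (0.18), and the NEG-higher class was -0.85 for day 14 POS (-0.90). With 1 library left out, the POS-higher class ran from 2.08 to 2.15 in POS against NEG, from -0.0258 to 0.0399 for day 14 POS, where it reversed without POS day 0 replicate 2, and from 0.17 to 0.19 for day 14 NEG. The NEG-higher class ran from -0.19 to -0.15 for acute NEG and from -0.14 to -0.13 for day 14 NEG. The cause was not tested. In 1 Mb windows 6.18% of windows were one-sided, against 12.1% at 500 kb. Weak sites limit the comparison: in the weakest decile the median standard error was 0.62.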
